A study of Homo sapiens with 42 samples.

Results

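The genes described here encode the proteins of the mitochondrial ribosome and were chosen by symbol, as the rows named MRPL or MRPS followed by a number and, in some, a letter from A to C. They are 77 of the 26228 genes in the table, 48 of them named MRPL for the large subunit and 29 named MRPS for the small subunit. All 77 passed the filter on low values, which asked for at least 1 FPKM (fragments scaled to transcript length and between libraries) in at least 3 libraries, and 0 of them were listed at 0 in any library.

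The study measured polyadenylated RNA in HAP1 cells, a near-haploid human line derived from a chronic myeloid leukemia, and in HAP1 cells whose CDK7 carries C312S, the replacement of the cysteine that covalent CDK7 inhibitors bind. CDK7 is the kinase of the general transcription factor TFIIH and of the CDK-activating complex. Each line was given 7 treatments for 24 h, with 3 libraries in each of the 14 groups and 42 in all. The C312S groups, all of which carry the changed kinase, received YKL at 500 nM, YKL at 2 µM, THZ531, a combination with YKL at 500 nM, a combination with YKL at 2 µM, THZ1, or DMSO, the solvent control. The WT groups received the same 7 treatments. YKL is named without its compound number in the treatment labels, and the number in its column names is that of a covalent CDK7 inhibitor. THZ531 is known as a covalent inhibitor of CDK12 and CDK13, and THZ1 as one of CDK7, CDK12 and CDK13. The concentrations of THZ531 and THZ1 are not stated in the labels, alone or combined. The combination label names no compound, and its columns carry the number of THZ531 beside the one of YKL. Neither the number of clones behind the C312S line nor the source of the 3 libraries (separate cultures or not) is labelled, so p-values cover variation among these libraries only, part or all of which may be technical.

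The mitochondrial ribosome translates the few messenger RNAs encoded in the mitochondrial genome, all for subunits of the oxidative phosphorylation complexes. Its ribosomal RNAs are transcribed in the organelle, whereas every one of its proteins is encoded in the nucleus, transcribed by RNA polymerase II and imported. Many of the proteins have bacterial relatives and others occur only in mitochondria, and the symbols follow the subunit in most but not all cases. The MRPS18A and MRPS30 proteins sit in the large subunit of the human ribosome, and MRPS36 has since been assigned to the alpha-ketoglutarate dehydrogenase complex as KGD4, but all 3 were kept because the choice was by symbol.

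Start-site sequences are shown because nuclear genes for mitochondrial proteins are often described by a few shared promoter motifs. Windows of 300 bases, 250 of them before the start, were available in RefSeq (GRCh38.p14) for 68 of the 77 genes, and letters were searched exactly on both strands. The ETS letters CCGGAAG occurred in 28 of the 68 windows (41.2%), against 19.6% of the windows of 9485 tested genes and 10.7% of all 27305 windows. The long YY1 letters, ATGGCGGC directly after AAG, occurred in 10 of 68 (14.7%), against 2.14% of the windows of tested genes and 0.916% of all windows. The 10 stretches that hold the long YY1 letters follow, each with up to 8 bases on either side, with those letters in capitals and read in the direction in which they spell this motif. In 9 of the 10 this is the strand of the gene and in MRPL36 it is the other strand. Those 9 hold the first motif base after the start, at positions from 6 (MRPL38) to 35 (MRPL22), and MRPL36 holds it at -38. The letters contain ATG, and whether they belong to coding sequence was not tested.
MRPL22 (chr5:154941100-154941122, plus strand): gagggcgaAAGATGGCGGCggca
MRPL36 (chr5:1799857-1799883, plus strand): caggaaggAAGATGGCGGCgggggggg
MRPL38 (chr17:75904860-75904886, minus strand): ccggagggAAGATGGCGGCgccctggt
MRPL46 (chr15:88467362-88467388, minus strand): gagaacgaAAGATGGCGGCgcccgtaa
MRPL50 (chr9:101398577-101398603, minus strand): tctcatcgAAGATGGCGGCgcgatctg
MRPS10 (chr6:42217834-42217860, minus strand): ggaccggcAAGATGGCGGCgcggacag
MRPS18A (chr6:43687764-43687790, minus strand): ggtttttgAAGATGGCGGCcctcaagg
MRPS18B (chr6:30617855-30617881, plus strand): cgtacgtcAAGATGGCGGCgtctgtat
MRPS24 (chr7:43869480-43869506, minus strand): cttggcccAAGATGGCGGCctccgtgt
MRPS30 (chr5:44808952-44808978, plus strand): cgcgggcaAAGATGGCGGCggccaggt

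The shorter core ATGGCGGC, which the long YY1 letters contain, was found in 26.5% of the 68 windows, against 6.51% of the windows of tested genes. The ETS letters or the YY1 core stood in 42 of the 68 windows and both together in 4. The NRF1 core GCATGCGC stood in 8.82%, against 5.65% of the windows of tested genes, and the same core directly after GC in 1.47%, against 2.33%. CCAAT stood in 29.4% against 37.0%, the E-box letters CACGTG in 8.82% against 10.3%, and TATAAA in 2.94% against 5.05%. Another gene started head to head within 1000 bases of 26 of the 68 (38.2%), against 27% of tested genes. MRPL46 and MRPS11 are such a pair within the family, with starts 320 bases apart. A match of letters is a description of the window and not a site of binding.

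The 250 bases before the start are shown in full for 4 small-subunit genes that limma called in 1 direction in every WT treatment, with ETS letters and CCAAT (either strand) in capitals. On the deposited scale MRPS12 and MRPS26 fell, and MRPS31 and MRPS9 rose, though with spike-in scaling MRPS31 was called lower with THZ1 and MRPS9 was called higher in 0 of the 6. The coordinates are those of GRCh38.p14 and not of the build of the expression values, hg19.
MRPS12 (chr19:38930694-38930943, plus strand): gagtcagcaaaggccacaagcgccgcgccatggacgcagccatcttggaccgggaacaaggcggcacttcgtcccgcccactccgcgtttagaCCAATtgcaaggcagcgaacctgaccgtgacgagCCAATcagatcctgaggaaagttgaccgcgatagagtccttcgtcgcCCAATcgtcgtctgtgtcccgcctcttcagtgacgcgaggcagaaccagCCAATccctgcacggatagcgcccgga
MRPS26 (chr20:3045802-3046051, plus strand): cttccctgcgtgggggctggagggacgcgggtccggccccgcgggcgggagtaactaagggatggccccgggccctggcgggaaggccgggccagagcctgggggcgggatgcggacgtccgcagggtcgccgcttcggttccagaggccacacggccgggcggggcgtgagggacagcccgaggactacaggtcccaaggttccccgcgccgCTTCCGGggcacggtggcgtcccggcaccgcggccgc
MRPS31 (chr13:40771191-40771440, minus strand): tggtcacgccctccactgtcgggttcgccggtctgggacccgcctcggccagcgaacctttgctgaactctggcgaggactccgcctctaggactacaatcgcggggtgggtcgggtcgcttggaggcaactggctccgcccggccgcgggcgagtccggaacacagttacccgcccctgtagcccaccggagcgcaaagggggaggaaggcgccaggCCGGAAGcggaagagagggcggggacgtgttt
MRPS9 (chr2:105037819-105038068, plus strand): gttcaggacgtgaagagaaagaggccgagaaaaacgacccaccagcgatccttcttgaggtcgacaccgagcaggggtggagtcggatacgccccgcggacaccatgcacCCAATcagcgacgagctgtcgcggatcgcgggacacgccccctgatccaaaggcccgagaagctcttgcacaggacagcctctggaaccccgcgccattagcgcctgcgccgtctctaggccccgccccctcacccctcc
CCAAT occurs 4 times before MRPS12, whose start lies 181 bases from that of SARS2 on the other strand, and 1 time before MRPS9. The ETS letters occur 1 time before MRPS26 and 1 time before MRPS31. The 4 genes were picked for holding these letters after the windows were searched. In the same stretch of MRPL12, MRPL24, MRPS6 and MRPS16, all called lower in every WT treatment, neither was found.

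The libraries differed in ways that bear on every level below. Summed gene FPKM averaged 852330 in C312S THZ1 and 794374 in C312S DMSO, whereas the remaining C312S groups averaged 556810 to 591154 and the WT groups 455948 to 628311. The files hold no counts, so the depth is unknown. The tissue label names a leukemia, and of 12 blood cell genes 1 passed the filter (CD33, at most 1.23 FPKM). Of 12 epithelial and fibroblast genes 4 passed it. VIM, an intermediate filament gene of mesenchymal cells, stood at 211 to 509 FPKM, KRT18, an epithelial keratin, at 23.0 to 43.1 FPKM, and KRT8 and COL1A1 at no more than 3.47 and 3.04 FPKM. The other 8, EPCAM and CDH1 among them, reached at most 0.132 FPKM. Scaling to spike-in RNAs, of which 23 exceeded 1 FPKM throughout, moved the median of all tested genes by -1.98 on the log2 scale for THZ1 against DMSO in WT, by -0.93 for the 2 µM combination, by -0.58 for YKL at 500 nM and by -0.34 for the 500 nM combination and by no more than 0.10 for YKL at 2 µM and THZ531. In C312S the shift was 0.88, 0.97 and 1.30 for YKL at 500 nM, YKL at 2 µM and THZ531, and -0.15 for THZ1. It was -1.15 for C312S against WT under DMSO. Scaling to total FPKM moved that median by 0.20 and 0.25 for YKL at 500 nM and 2 µM in WT, by 0.14 for the 500 nM combination, by -0.14 for THZ1, by 0.37, 0.37 and 0.36 for YKL at 500 nM, YKL at 2 µM and THZ531 in C312S, and by -0.39 for C312S against WT under DMSO. Changes below are relative to the FPKM scale as deposited, on which the median tested gene changed by between -0.06 and 0.03 in all 21 comparisons, and no absolute change in RNA per cell can be read from them. Each other scaling divides all genes of a library by the same factor. Member counts under another scaling are given without the share of all tested genes called on that scale, so they have no background.

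In WT cells under DMSO the family spanned a 19.0-fold range of levels. MRPL51 was highest at 343, 280 and 296 FPKM, followed by MRPL20 at 260, 231 and 227 FPKM and MRPL33 at 227, 181 and 175 FPKM. MRPL18 (173 ± 11.0 FPKM, SD, n = 3) and MRPL21 (165 ± 10.9 FPKM) came next, and the libraries of MRPL33, MRPL18 and MRPL21 overlap. The lowest were MRPS14 at 17.8, 15.7 and 15.0 FPKM, MRPL19 at 15.4, 16.2 and 17.02 FPKM and MRPS25 at 17.01, 17.1 and 17.7 FPKM. MRPL22 (18.6 ± 2.44 FPKM) and MRPL57 (20.5 ± 0.315 FPKM) lay just above. Each of these 5 overlaps the next, so the order of neighbours is not resolved, but every MRPL57 library lay above those of MRPS14, MRPL19 and MRPS25. MRPL51 was the highest member in every one of the 14 groups, and the lowest rank correlation of member levels between any pair of groups was 0.72, a description over 77 genes that share their libraries.

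The geometric mean over the 77 genes was 75.6 ± 1.09 FPKM in C312S with YKL at 500 nM, 78.9 ± 1.18 with YKL at 2 µM, 74.0 ± 1.52 with THZ531, 75.6 ± 1.91 and 84.8 ± 3.06 with the 500 nM and 2 µM combinations, 107 ± 5.62 with THZ1 and 116 ± 2.28 with DMSO (SD, n = 3 each). In WT it was 68.6 ± 0.432 FPKM with YKL at 500 nM, 64.6 ± 2.12 with YKL at 2 µM, 67.2 ± 1.51 with THZ531, 69.2 ± 3.74 and 86.1 ± 3.51 with the 500 nM and 2 µM combinations, 61.0 ± 0.912 with THZ1 and 71.3 ± 3.71 with DMSO. The C312S THZ1 and DMSO libraries were above all others on this measure. As a share of summed gene FPKM the family held 1.23% ± 0.0144 in C312S THZ1 and 1.37% ± 0.00721 in C312S DMSO, and 1.44% ± 0.0309 in the WT 2 µM combination, 0.921% ± 0.024 in WT THZ1 and 1.16% ± 0.0115 in WT DMSO (SD, n = 3 each). On the share C312S THZ1 lay within the range of the other C312S groups, and WT THZ1 was lowest of all 14 groups.

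**Figure D1:**
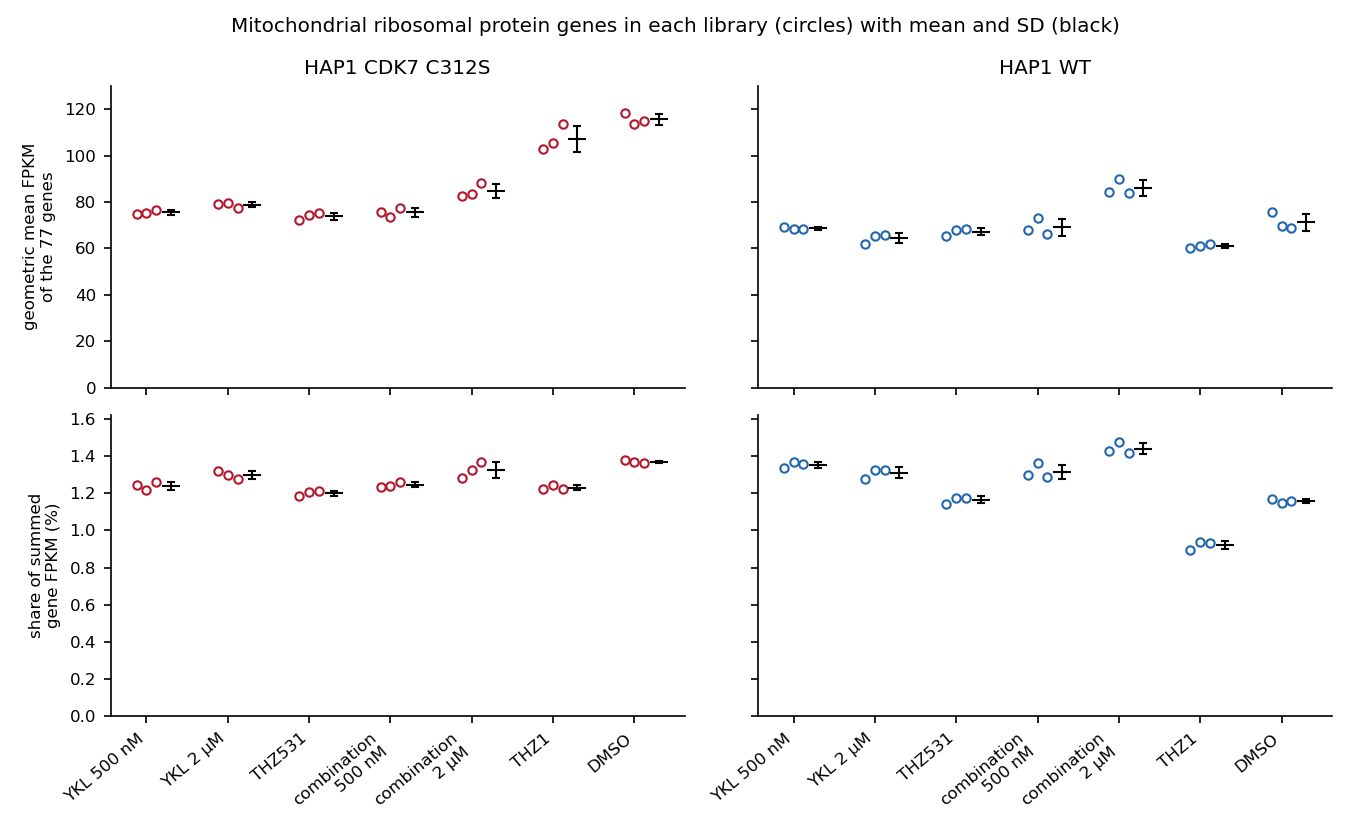
Geometric mean FPKM of the 77 genes (top) and their share of summed gene FPKM in percent (bottom) in each library of the C312S line (left panels) and the WT line (right panels); circles are libraries, and the black mark and bar are the mean and SD of 3. C312S THZ1 (107) and DMSO (116) lie above the other C312S groups on the top axis, and WT THZ1 (0.921%) is lowest on the bottom one.

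Across the 14 groups 33 members had their highest mean in C312S THZ1, 35 in C312S DMSO and 6 in the WT 2 µM combination (MRPS25, MRPL2, MRPS9, MRPL40, MRPS14 and MRPS31). In 31 the lowest mean was in WT THZ1. MRPL48 varied most, with a ratio of 5.43 between its highest and lowest group, 127 FPKM in C312S THZ1 and 23.3 FPKM in WT with YKL at 2 µM, and MRPS25 varied least, with a ratio of 1.21. The median ratio was 2.45. Over the 14 group means the median correlation of a member with the mean of the others was 0.79, and 0.60 over the 12 groups without C312S THZ1 and DMSO, a description of groups that share those library differences. MRPL46 (0.98) and MRPS21 (0.98) were most like the rest over the 14 groups and MRPL28 (-0.17), a protein with a bacterial relative, least.

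Whether inhibition by YKL moved these genes in WT cells was asked first. With YKL at 500 nM 23 members rose and 27 fell of 77 (background: 31.3% of all 12816 tested genes called higher and 31.7% called lower by limma on log2(FPKM + 1), adjusted p under 0.05), with a median log2 change of -0.00 against -0.00 for all tested genes. With YKL at 2 µM 11 rose and 35 fell (background 31.8% and 33.5%), with a median of -0.06 against -0.00. The members' counts at 500 nM lie near the background, and the direction of the majority turned at both doses with scaling to total FPKM, which gave 48 higher and 16 lower at 500 nM and 46 higher and 18 lower at 2 µM. At 500 nM it also turned with median-ratio scaling (27 higher and 26 lower) and without replicate 1 of WT DMSO (26 higher and 23 lower).

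The large-subunit gene MRPL48 fell most with YKL. It stood at 26.2, 29.7 and 24.2 FPKM with 500 nM and at 23.2, 22.8 and 24.0 FPKM with 2 µM, against 65.7, 55.7 and 58.5 FPKM in DMSO. Each treated library was below each DMSO library (log2 change -1.14, SE 0.10, limma adjusted p = 1.14e-11 at 500 nM, and -1.32, SE 0.10, limma adjusted p = 2.97e-13 at 2 µM). MRPL27, whose bacterial relative lies near the peptidyl transferase centre, stood at 60.6, 58.2 and 58.7 FPKM with 500 nM and 50.4, 53.5 and 48.0 FPKM with 2 µM, against 105, 103 and 96.7 FPKM in DMSO. It too was lower in all treated libraries (-0.77 and -0.99 in log2, limma adjusted p = 4.04e-13 and 6.67e-16). MRPL1 at 500 nM (35.4, 35.5 and 39.9 FPKM, against 67.8, 56.0 and 54.6 FPKM in DMSO, log2 change -0.67) and MRPL54 at 2 µM (46.1, 51.3 and 46.6 FPKM, against 87.9, 87.7 and 82.3 FPKM in DMSO, log2 change -0.83) also fell with no overlap.

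Among small-subunit genes MRPS28 fell, to 44.4, 47.3 and 44.8 FPKM with YKL at 500 nM and 41.3, 39.2 and 41.8 FPKM at 2 µM, against 76.4, 70.0 and 65.9 FPKM in DMSO (log2 changes -0.62 and -0.78). MRPS31 rose most, to 61.6, 57.7 and 56.8 FPKM at 500 nM and 52.6, 53.9 and 61.9 FPKM at 2 µM, against 39.3, 34.4 and 31.8 FPKM in DMSO (0.73 and 0.66, SE 0.09 each, limma adjusted p = 1.77e-08 and 9.24e-08). The annotation holds 4 pseudogene copies of MRPS31. The 1 of them described here, MRPS31P5, stood at 1.69 to 2.90 FPKM over the group means and MRPS31 at 34.4 FPKM or more in every library but 1. The part of reads shared with the copies in the change of MRPS31 was not tested. MRPS14, the relative of a bacterial small-subunit protein, rose to 24.7, 25 and 24.7 FPKM at 500 nM and 23.5, 26.2 and 28.2 FPKM at 2 µM, against 17.8, 15.7 and 15.0 FPKM in DMSO (0.59 and 0.65).

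The large-subunit genes that rose with YKL were led by MRPL40 and MRPL32. MRPL40, which lies in the region deleted in the velocardiofacial syndrome, stood at 168, 173 and 171 FPKM with 500 nM and 144, 154 and 157 FPKM with 2 µM, against 134, 112 and 101 FPKM in DMSO (0.57 and 0.40). MRPL32, a protein that must be cleaved by a mitochondrial protease before it joins the ribosome, stood at 127, 128 and 119.8 FPKM with 500 nM and 116, 131 and 138 FPKM with 2 µM, against 90.2, 83.6 and 89.1 FPKM in DMSO (0.51 and 0.54). The treated libraries of both genes were all above the DMSO ones. MRPL32 overlaps exons of PSMA2 on the other strand in the annotation. In WT PSMA2 stood at 167 ± 2.05 FPKM with YKL at 500 nM, 151 ± 8.29 with YKL at 2 µM and 203 ± 8.10 with THZ1. It stood at 283 ± 24.8 FPKM in the 2 µM combination, against 163 ± 17.8 FPKM in DMSO. The part of its reads in the values of MRPL32 was not tested. The rises of MRPS14, MRPL40 and MRPL32 at 500 nM turned to falls of 0.032, 0.081 and 0.14 in log2 with spike-in scaling.

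The higher YKL dose differed from the lower one in few members on the deposited scale, and with spike-in scaling all 77 were called higher. That scaling moves all genes of a library together, and the share of all tested genes called higher on it is not given here. Against 500 nM, 0 members rose and 5 fell at 2 µM (background 2.14% higher and 4.04% lower), with a median log2 difference of -0.08. MRPL54 stood at 46.1, 51.3 and 46.6 FPKM at 2 µM, against 61.4, 59.0 and 56.3 FPKM at 500 nM (-0.29, limma adjusted p = 0.0199). MRPS24, MRPL27 and MRPL11 followed with differences of -0.22, -0.22 and -0.19. At an unadjusted p under 0.05 the dose difference covered 19 members, 0 of them higher, beside 2672 of all 12816 tested genes in either direction. It rested on single libraries, since 0 members were called without replicate 1 of either dose, 1 without replicate 3 of 2 µM and 2 without replicate 2 of 500 nM.

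**Figure D2:**
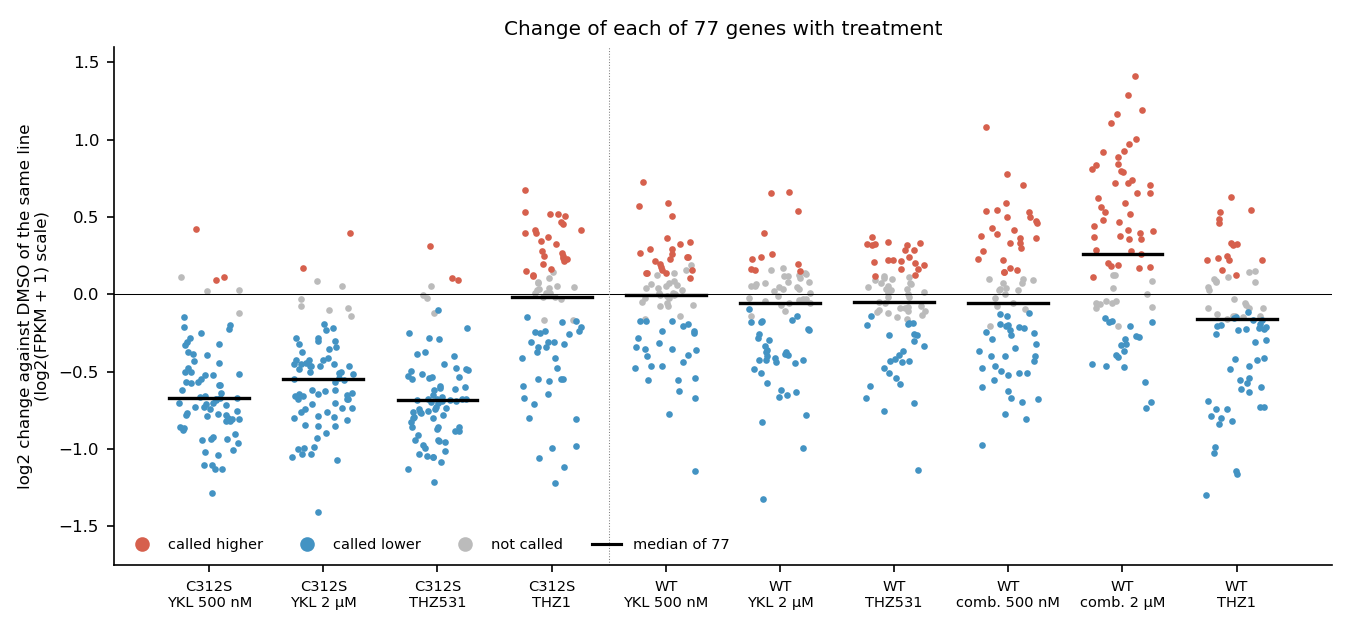
Log2 change (log2(FPKM + 1) scale) of each of the 77 genes against DMSO of the same line, for 4 C312S treatments (left) and 6 WT treatments (right); red points are called higher, blue lower and grey not called by limma, and the bar is the median. In WT the points spread to both sides of 0, and with YKL or THZ531 in C312S the medians lie between -0.55 and -0.69.

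With THZ531 in WT 20 members rose and 25 fell (background 24% and 22.9%), with a median of -0.05 against 0.01 for all tested genes, but 29 rose and 22 fell with total-FPKM scaling and 13 rose and 14 fell with spike-in scaling. The falls were led by large-subunit genes. MRPL53 stood at 21.8, 22.4 and 18 FPKM with THZ531, against 44.9, 44.8 and 50.1 FPKM in DMSO (-1.14, SE 0.08, limma adjusted p = 7.21e-13). MRPL57 stood at 11.6, 11.3 and 12.5 FPKM, against 20.9, 20.5 and 20.2 FPKM in DMSO (-0.75), and MRPL17 at 23.4, 22.8 and 23.8 FPKM, against 43.6, 36.4 and 36.3 FPKM in DMSO (-0.70). No library of these 3 genes with THZ531 reached a DMSO library. MRPL12, whose protein also binds the mitochondrial RNA polymerase, fell by 0.67, to 75.5, 72.9 and 78.5 FPKM with THZ531, against 121, 123 and 117 FPKM in DMSO. MRPL53 shares exon sequence with CCDC142 and MRPL12 with AC139530.2 on the same strand in the annotation, so their values may hold reads of those genes.

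The rises with THZ531 were smaller. MRPL47 stood at 110.1, 126 and 128 FPKM, against 103, 87.4 and 90.6 FPKM in DMSO (0.37, SE 0.08, limma adjusted p = 0.000195). MRPS35 (0.34), MRPL39 (0.33) and MRPS22 (0.33), a gene mutated in an inherited deficiency of oxidative phosphorylation, also rose with no overlap. Across the 77 genes the change with THZ531 had a Spearman correlation of -0.56 with the GC content of the transcript, and across 12066 tested genes one of -0.47. With trends of GC and length removed 23 members were called higher and 27 lower, and 37 of the 45 members called on the deposited scale were called in the same direction. The part of GC content in the changes was not tested further.

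With THZ1 in WT 15 members rose and 41 fell (background 34% and 34.8%), with a median of -0.16 against -0.01 for all tested genes. Of the 48 MRPL genes 22 fell and 10 rose, and of the 29 MRPS genes 19 fell and 5 rose. MRPS6, a small-subunit protein with a bacterial relative, stood at 45.2, 38.5 and 40.9 FPKM with THZ1, against 113, 102 and 95.8 FPKM in DMSO (-1.30, SE 0.05, limma adjusted p = 3.04e-19). MRPL17 stood at 18.4, 15.7 and 16.0 FPKM, against 43.6, 36.4 and 36.3 FPKM in DMSO (-1.16), and MRPL57 at 10.3, 9.23 and 9.13 FPKM, against 20.9, 20.5 and 20.2 FPKM in DMSO (-1.03). MRPL12 stood at 57.5, 58.3 and 47.3 FPKM, against 121, 123 and 117 FPKM in DMSO (-1.14). The THZ1 libraries of all 4 genes were below the DMSO ones. MRPS6 shares exons with SLC5A3 in the annotation, a gene at 3.71 ± 0.235 FPKM with THZ1 and 5.47 ± 0.9 FPKM in DMSO.

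MRPL32 rose with THZ1, at 131, 138 and 140.4 FPKM against 90.2, 83.6 and 89.1 FPKM in DMSO (0.63, SE 0.05, limma adjusted p = 1e-11). MRPL44, a protein with a ribonuclease-like fold that is mutated in a form of cardiomyopathy, stood at 65.3, 65.6 and 71.8 FPKM, against 46.4, 44.0 and 47.0 FPKM in DMSO (0.55). MRPS31 (0.53) and MRPL33 (0.49) also rose with no overlap between libraries. With spike-in scaling all 77 members were called lower, with a median of -2.53 against -1.99 for all tested genes, so these 4 rises turned to falls on that scale.

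THZ531 and THZ1 were each set against the same 3 DMSO libraries and their doses are not stated, so their values are given side by side and not compared. MRPL53 changed by -1.14 in WT with THZ531 and by -0.54 with THZ1, MRPS6 by -0.26 and -1.30, MRPL17 by -0.70 and -1.16, and MRPL48 by 0.01 and -0.09. The 95% interval for MRPL48 ran from -0.19 to 0.21 with THZ531 and from -0.29 to 0.11 with THZ1, and neither passed the threshold (limma adjusted p = 0.948 and 0.432).

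In the combination most of the family rose in WT at the higher dose of YKL, on the FPKM scale as deposited. At 500 nM 27 members rose and 35 fell against DMSO (background 34% and 34.2%), with a median of -0.05, and with total-FPKM scaling 38 rose and 23 fell. At 2 µM 45 rose and 19 fell (background 38.9% and 38.1%), with a median of 0.26 against 0.01. A rise of at least 2-fold was seen in 6 members, and the share of all tested genes with such a rise was not computed. The changes at 2 µM had a Spearman correlation with GC content of -0.51 across the members and -0.47 across 12066 tested genes. With trends of GC and length removed 52 of the 64 called members kept their call and direction. With spike-in scaling the 2 µM count turned to 1 higher and 68 lower, with the members' median at -0.85 and that of all tested genes at -0.93.

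MRPS31 rose most at both doses, to 71.6, 80.8 and 73.5 FPKM in the 500 nM combination and 86.1, 106 and 93.8 FPKM in the 2 µM combination, against 39.3, 34.4 and 31.8 FPKM in DMSO (1.08 and 1.41, limma adjusted p = 2.98e-12 and 2.23e-15). MRPL32 stood at 152, 157 and 144 FPKM and at 206, 227 and 214 FPKM, against 90.2, 83.6 and 89.1 FPKM in DMSO (0.78 and 1.29). MRPL13 stood at 144, 163 and 148 FPKM and at 211, 253 and 229.7 FPKM, against 115, 97.1 and 90.2 FPKM in DMSO (0.59 and 1.19). All treated libraries of these 3 genes lay above all DMSO libraries. MRPL33, a small protein of the large subunit, stood at 377, 519.6 and 419.8 FPKM in the 2 µM combination, against 227, 181 and 175 FPKM in DMSO (1.17), and MRPS14 rose by 0.71 in the 500 nM combination.

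The members that fell with the combination were others. MRPL12 stood at 70.5, 74.8 and 66.0 FPKM in the 500 nM and 80.1, 73.6 and 63.6 FPKM in the 2 µM combination, against 121, 123 and 117 FPKM in DMSO (-0.77 and -0.74, limma adjusted p = 5.04e-10 and 7.15e-10). MRPS6 stood at 60.6, 63.4 and 52.4 FPKM and at 61.8, 64.2 and 64.1 FPKM, against 113, 102 and 95.8 FPKM in DMSO (-0.81 and -0.70). Both genes had no treated library within the DMSO range. MRPL48 (-0.98) and MRPL24 (-0.70) at 500 nM, and MRPS16 (-0.56), a gene mutated in an inherited respiratory chain deficiency, and MRPL28 (-0.47) at 2 µM, fell as well.

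The naming rule also picks members called in 1 direction in all 6 WT treatments, and the 6 comparisons share the DMSO libraries. Lower in all were MRPL12, MRPL24, MRPS6, MRPS12, MRPS16 and MRPS26, and higher in all were MRPL21, MRPS9 and MRPS31. The share of all tested genes called in 1 direction in all 6 was not computed, so these numbers of members have no background. With spike-in scaling MRPL21 was called higher in 1 of the 6 and lower in 2, MRPS9 higher in 0 and lower in 3, and MRPS31 higher in 4 and lower in 1, with THZ1. The genes called lower kept that call in all 6 on that scale except MRPS6 (5 of 6), whereas with total-FPKM scaling MRPL12 and MRPS12 were called lower in 4 and MRPS6 in 5, and MRPL21 higher in 5. Some calls rested on single libraries. That of MRPL12 with YKL at 500 nM was lost without replicate 2 or 3 of that group or replicate 1 or 2 of DMSO (log2 changes of -0.19 to -0.17). That of MRPL21 with THZ1 was lost without replicate 3 of THZ1 (0.17). Those of MRPS9 with YKL at 2 µM and with THZ531 were lost without replicate 2 or 3 of DMSO, replicate 3 of YKL at 2 µM or replicate 2 of THZ531 (0.11 to 0.15). MRPS16 stood at 42.7, 41.2 and 42.5 FPKM with YKL at 500 nM, 41.3, 41.4 and 41.2 FPKM with YKL at 2 µM, 40.6, 42 and 40.9 FPKM with THZ531 and 26.6, 27.2 and 28.9 FPKM with THZ1, against 55.8, 54.7 and 56.6 FPKM in DMSO. Every treated library lay below every DMSO library, and the log2 changes were -0.39, -0.42, -0.43 and -0.99. MRPS12, a protein of the decoding centre in its bacterial relatives, changed by between -0.34 (YKL at 500 nM) and -0.82 (THZ1), MRPS26 by between -0.40 (2 µM combination; -0.016 and not called with GC and length trends removed) and -0.79 (THZ1), and MRPL24 by between -0.35 (YKL at 500 nM) and -0.73 (THZ1). MRPL21 stood at 301, 364 and 311 FPKM in the 2 µM combination, against 177, 156 and 162 FPKM in DMSO (0.97), and its smallest change was 0.22 with THZ1. MRPS9 changed by between 0.16 and 0.71, and its libraries with YKL at 2 µM and with THZ531 overlap those of DMSO.

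FAU, which starts 49 bases from MRPL49 on the other strand, stood at 1266 ± 46.0 FPKM with THZ1 in WT, against 816 ± 36.7 FPKM in DMSO. MRPL49 stood at 43.5 ± 2.26 FPKM with THZ1, against 58.2 ± 2.97 FPKM in DMSO. EME1, head to head with MRPL27, stood at 5.98 ± 0.332 FPKM with YKL at 500 nM in WT, against 11.8 ± 0.492 FPKM in DMSO. SARS2, the mitochondrial seryl-tRNA synthetase gene that starts head to head with MRPS12, is no member of the family. It stood at 7.13 ± 0.351 FPKM with YKL at 500 nM, 8.69 ± 0.919 FPKM with THZ1 and 5.01 ± 0.38 FPKM in the 2 µM combination, against 15.8 ± 0.807 FPKM in WT DMSO (SD, n = 3 each).

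A bacterial ribosome has 1 relative of the 3 MRPS18 paralogs. On the deposited scale MRPS18B and MRPS18C were called in opposite directions in WT with YKL at 500 nM. All 3 were called in the same direction with THZ1 and in the 2 µM combination. With YKL at 500 nM MRPS18C rose by 0.24 (limma adjusted p = 0.00972), MRPS18B changed by -0.17 (limma adjusted p = 0.00689) and MRPS18A by 0.14 (limma adjusted p = 0.0812, not called). With THZ1 in WT all 3 were called lower, MRPS18A by -0.42 at 35, 34.7 and 32.7 FPKM against 49.2, 47.7 and 41.5 FPKM in DMSO, MRPS18C by -0.22 and MRPS18B by -0.16. In the 2 µM combination all 3 were called higher, by 0.17, 0.44 and 0.36 for MRPS18A, MRPS18C and MRPS18B. With spike-in scaling these rises turned to falls, with changes of -0.93, -0.67 and -0.75, and the change of MRPS18C with YKL at 500 nM turned to -0.40. Single libraries decided several of these calls. At 500 nM that of MRPS18C was lost without replicate 3 of YKL or replicate 2 or 3 of DMSO (0.19 to 0.21), that of MRPS18B without replicate 1 of DMSO (-0.13), and MRPS18A was called without replicate 3 of YKL or replicate 1 of DMSO (0.18 in both). With THZ1 MRPS18B was lost without replicate 1 of DMSO (-0.12) and MRPS18C without that library (-0.13) or replicate 2 of THZ1 (-0.20). In the 2 µM combination MRPS18A was lost without its replicate 1 (0.14) or replicate 3 of DMSO (0.095), and with GC and length trends removed MRPS18C stood at 0.056 and was not called.

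**Figure D3:**
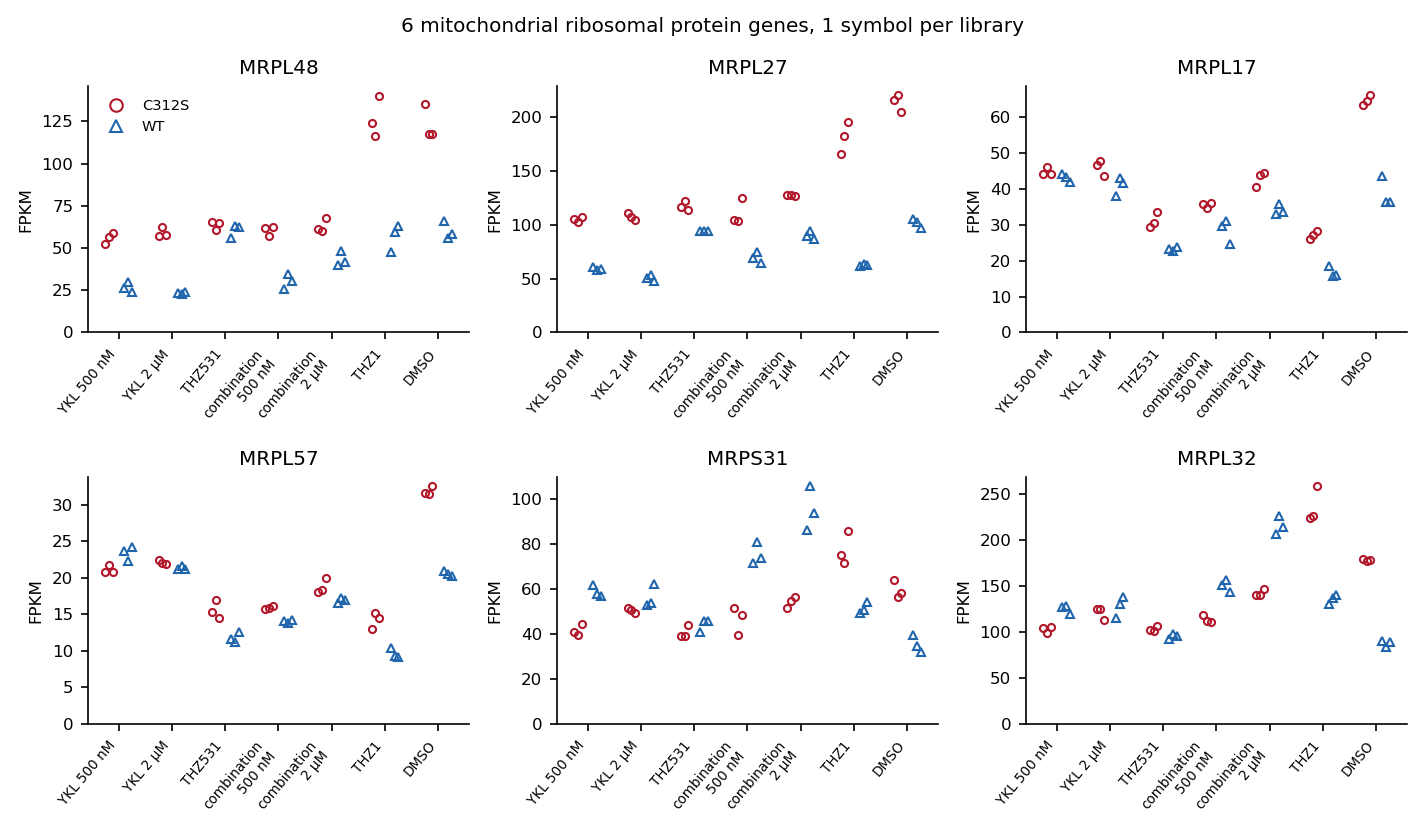
FPKM of 6 genes in each library, with circles for C312S, triangles for WT and DMSO as the last position on each horizontal axis. WT triangles of MRPL48 are low with YKL alone and in both combinations, those of MRPL17 and MRPL57 are low with THZ531 and THZ1, and those of MRPS31 and MRPL32 are highest in the 2 µM combination.

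The combination was then set against THZ531 alone, which asks what YKL added in each line and leaves the DMSO libraries out. The labels do not give the THZ531 dose of either group. In C312S 0 of 77 members were called by limma when 500 nM was added (background 0.577% of all tested genes in either direction), and no other tool was run. At an unadjusted p under 0.05 there were 11 members, 9 of them higher, beside 1095 of all 12816 tested genes in either direction. In WT 32 rose and 20 fell (background 31.5% and 29.7%). With spike-in scaling 72 members were called lower in C312S and 55 lower and 1 higher in WT, where the median of all tested genes moved by -0.34 and -0.41. The difference between lines, tested as an interaction, was called in 30 members, 16 higher and 14 lower in C312S (background 20.5% and 21%), shares near the background. That majority turned to 15 higher and 29 lower with total-FPKM scaling, to 16 and 18 with median-ratio scaling, and to 15 and 16 or 16 and 20 in 4 of the fits without 1 library.

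MRPL48 differed most between the lines. In C312S it stood at 61.9, 57.2 and 62.1 FPKM in the 500 nM combination, against 65.3, 60.4 and 65 FPKM with THZ531, and the libraries overlap (log2 change -0.07, 95% interval -0.27 to 0.13). In WT it stood at 25.5, 34.8 and 30.3 FPKM in the combination, against 55.9, 62.9 and 62.2 FPKM with THZ531, with no overlap (-0.98). The difference, C312S minus WT, was 0.91 (SE 0.14, limma adjusted p = 2.85e-06). MRPS6 showed a difference of 0.55 (SE 0.08, limma adjusted p = 8.35e-07), with 104, 95.7 and 96.0 FPKM against 97.9, 96.8 and 98.7 FPKM in C312S and 60.6, 63.4 and 52.4 FPKM against 83.0, 83.7 and 91.2 FPKM in WT. MRPL54 (0.54) and MRPL34 (0.53), both of the large subunit, went the same way.

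The members that rose in WT when 500 nM was added gave differences of the other sign. MRPS31 stood in C312S at 51.6, 39.3 and 48.5 FPKM in the combination, against 39.0, 39.1 and 44.0 FPKM with THZ531, and in WT at 71.6, 80.8 and 73.5 FPKM, against 40.8, 45.9 and 45.6 FPKM. The C312S libraries overlap and the WT libraries do not, and the difference was -0.58 (SE 0.12, limma adjusted p = 0.00035). MRPL40 (-0.59), MRPL32 (-0.52) and MRPL53 (-0.51) followed.

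At 2 µM both lines changed. In C312S 46 members rose and 3 fell (background 18.5% and 16.3%), with a median of 0.18 against 0.00 for all tested genes. In WT 52 rose and 8 fell (background 38.3% and 35.3%), with a median of 0.40 against 0.02. With spike-in scaling the counts turned to 0 higher and 76 lower in C312S and 0 higher and 73 lower in WT, with members' medians of -0.59 and -0.79 beside -0.69 and -0.98 for all tested genes. The lines share no library, and 38 members rose in both, 82.6% of the 46 in C312S and 73.1% of the 52 in WT, with a Pearson correlation of 0.63 across the 77 genes. The share of all tested genes that rose in both lines was not computed.

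In C312S MRPL52 led the rises at 62.2, 69.1 and 73.2 FPKM in the 2 µM combination, against 43.1, 50.6 and 46.0 FPKM with THZ531 (0.54, SE 0.07, limma adjusted p = 2.86e-07). MRPL55 (0.53), MRPL49 (0.50) and MRPL32 (0.46) followed, all of the large subunit and without overlap. MRPL1 fell, to 47.4, 44.4 and 50.5 FPKM against 53.7, 62.3 and 60.3 FPKM with THZ531 (-0.30), and MRPL19 by 0.13, a call lost without replicate 2 of the C312S combination or replicate 2 or 3 of C312S THZ531. In WT MRPL32 stood at 206, 227 and 214 FPKM, against 92.1, 98.2 and 95.5 FPKM with THZ531 (1.17, SE 0.05, limma adjusted p = 2.97e-18), and MRPS31 (1.09), MRPS14 (1.0) and MRPL13 (0.98) also rose. MRPL48 (-0.47), MRPS6 (-0.43), MRPS28 (-0.38) and MRPL19 (-0.37) fell in WT.

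The interaction at 2 µM called 44 members, 9 higher and 35 lower in C312S (background 25.9% and 27.2%), with a median difference of -0.19 against -0.01 for all tested genes. MRPL33 stood in C312S at 247, 239 and 289 FPKM in the combination, against 249.7, 259.9 and 251 FPKM with THZ531, and in WT at 377, 519.6 and 419.8 FPKM, against 226, 257 and 251 FPKM. Its rise was seen in the WT libraries, and the difference was -0.81 (SE 0.13, limma adjusted p = 6.26e-06). MRPL32 (-0.71), MRPL13 (-0.71) and MRPS31 (-0.69) had the same sign, and MRPS6 (0.60), MRPS2 (0.47), MRPL48 (0.46) and MRPL54 (0.39) the other. With spike-in scaling the count turned to 29 higher and 1 lower.

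**Figure D4:**
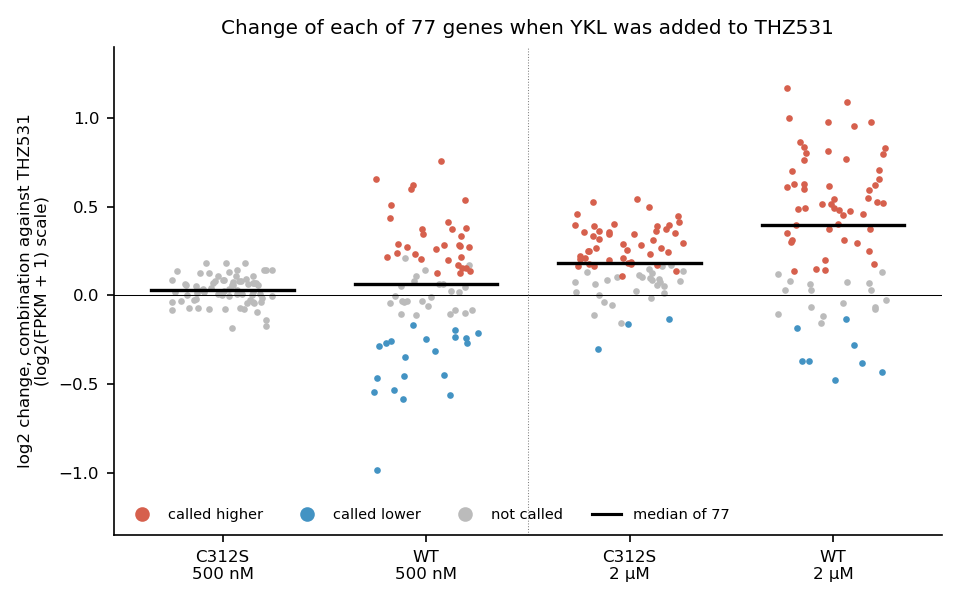
Log2 change of each of the 77 genes in the combination against THZ531 alone, at 500 nM (left pair) and 2 µM (right pair) of YKL, with C312S before WT in each pair; colours give the limma call and the bar is the median. At 500 nM 0 genes are called in C312S and 52 in WT, and at 2 µM the medians are 0.18 in C312S and 0.40 in WT.

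THZ1 was the treatment whose C312S libraries resembled those of C312S DMSO in summed FPKM. In C312S 26 members rose with it and 34 fell (background 33.9% and 29.7%), with a median of -0.01 against 0.02. MRPL17 stood at 26.2, 27.2 and 28.2 FPKM with THZ1, against 63.4, 64.6 and 66.2 FPKM in DMSO (-1.22, SE 0.07, limma adjusted p = 6.98e-16). MRPL57 stood at 13.1, 15.1 and 14.4 FPKM, against 31.6, 31.5 and 32.5 FPKM in DMSO (-1.12), and MRPL12 at 67.5, 76.4 and 75.6 FPKM, against 154, 157 and 148 FPKM in DMSO (-1.06). All 3 genes fell with no overlap, and so did MRPL53 (-1.0). MRPS35 stood at 182, 186 and 202 FPKM, against 129, 113 and 115 FPKM in DMSO (0.68), and MRPL34 (0.54), MRPS5 (0.52) and MRPL44 (0.52) also rose.

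The C312S and WT tests of THZ1 share no library. Lower in both were 30 members, 88.2% of the 34 in C312S and 73.2% of the 41 in WT, and higher in both were 14, 53.8% of the 26 in C312S and 93.3% of the 15 in WT. For all tested genes the overlap of calls between the lines was not computed, so these shares have no background. Across the 77 genes the changes had a Pearson correlation of 0.85, as a description. The interaction called 36 members, 29 higher and 7 lower in C312S (background 22.4% and 19.8%), with a median difference of 0.14 against 0.02, and all 77 higher with spike-in scaling, which moved the median of all tested genes by 1.83.

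MRPS6 had the largest positive difference, 0.82 (SE 0.08, limma adjusted p = 7.59e-10). It stood in C312S at 114, 116 and 122 FPKM with THZ1, against 162, 163 and 166 FPKM in DMSO, and in WT at 45.2, 38.5 and 40.9 FPKM, against 113, 102 and 95.8 FPKM. The gene fell in both lines, by 0.48 in C312S and by 1.30 in WT. MRPL1 (0.54), MRPL54 (0.49) and MRPS26 (0.46) followed, and MRPS14 (-0.55), MRPL53 (-0.45), MRPL13 (-0.34) and MRPL49 (-0.30) had the other sign. The difference of MRPL13 lost its call without replicate 1 of C312S DMSO (-0.27), replicate 2 of C312S THZ1 (-0.30), replicate 3 of WT THZ1 (-0.28) or replicate 3 of WT DMSO (-0.26).

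**Figure D5:**
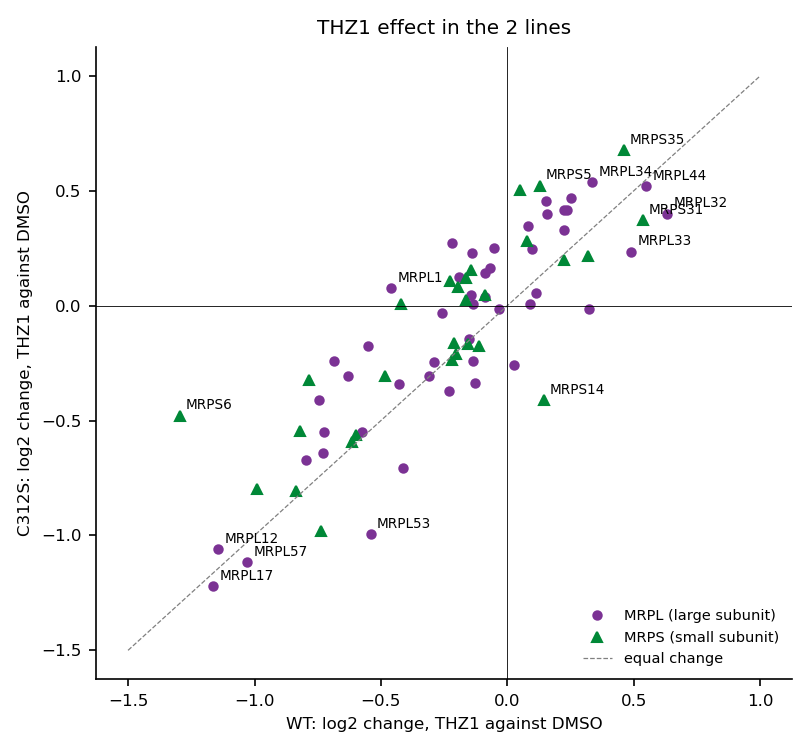
Log2 change with THZ1 against DMSO in C312S (vertical) and in WT (horizontal) for each of the 77 genes, with MRPL as purple circles, MRPS as green triangles and a dashed line of equal change. MRPL17, MRPL57 and MRPL12 lie near -1.1 on both axes, and MRPS6 lies off the line at -0.48 in C312S and -1.30 in WT.

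Under DMSO 71 of the 77 members were higher and 1 lower in C312S than in WT (background 41.3% and 37.9%), with a median log2 difference of 0.77 against 0.03 for all tested genes. The C312S DMSO libraries are those with summed FPKM of 794374 on average, against 558669 in WT DMSO. Across 12066 tested genes the difference had a Spearman correlation of -0.56 with GC content, and across the members -0.44. With GC and length trends removed 71 members were higher and 3 lower, with total-FPKM scaling 52 higher and 14 lower, and with spike-in scaling 0 higher and 76 lower. A difference between the lines and a difference between these libraries cannot be told apart.

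MRPL13 had the largest difference, at 265, 227 and 236 FPKM in C312S, against 115, 97.1 and 90.2 FPKM in WT (1.26, SE 0.08, limma adjusted p = 9.75e-15). MRPS23, a protein found only in mitochondria, stood at 158, 148 and 148 FPKM in C312S, against 72.3, 62.9 and 64.1 FPKM in WT (1.18), and MRPL51 at 676, 647 and 659 FPKM, against 343, 280 and 296 FPKM in WT (1.11). In each the C312S libraries lay above those of WT. MRPL33 differed by 1.13. The 1 member called lower was MRPS2, at 71.1, 80.8 and 79.7 FPKM in C312S, against 94.9, 94.1 and 89.8 FPKM in WT (-0.27, limma adjusted p = 0.000454), but a fit freed of GC and length trends gave 0.060.

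Against the same C312S DMSO libraries nearly the whole family was lower with YKL or THZ531. With YKL at 500 nM 3 members were called higher and 70 lower (background 36.9% and 39.6%), with YKL at 2 µM 2 and 68 (background 36.6% and 39.2%), and with THZ531 3 and 70 (background 34.6% and 39.5%). The medians were -0.67, -0.55 and -0.69, beside -0.02, -0.01 and -0.03 for all tested genes. Summed FPKM moved with these counts, at 558253, 561440 and 567750 in the treated groups and 794374 in DMSO, and so did GC content, with Spearman correlations across tested genes of 0.59, 0.57 and 0.47. With GC and length trends removed 65, 65 and 66 members were lower, with total-FPKM scaling 42, 35 and 49, and with spike-in scaling 0, while 68, 74 and 77 were higher. These 3 comparisons share the DMSO libraries, and treatment and library differences cannot be told apart in them.

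MRPL1 stood at 46.1, 47.2 and 46.0 FPKM in C312S with YKL at 500 nM and at 41.3, 39.2 and 47.5 FPKM at 2 µM, against 119, 110.4 and 114 FPKM in DMSO (-1.28 and -1.41, limma adjusted p = 1.19e-14 and 1.91e-15). MRPL48 stood at 52.1, 56.8 and 58.8 FPKM and at 57.0, 62.4 and 57.6 FPKM, against 135, 118 and 118 FPKM in DMSO (-1.13 and -1.05). Both were lower in every treated library. With THZ531 MRPS33 led, at 85.3, 84.4 and 91.0 FPKM against 216, 199 and 196 FPKM in DMSO (-1.22), before MRPS15 (-1.13), MRPL53 (-1.08) and MRPL49 (-1.05). MRPS2 was called higher in all 3, at 105, 102 and 104 FPKM with YKL at 500 nM, against 71.1, 80.8 and 79.7 FPKM in DMSO (0.42). The other members called higher were MRPL37 (0.11 and 0.17 with the 2 doses of YKL), MRPS25 (0.09 with YKL at 500 nM and 0.09 with THZ531) and MRPS5 (0.11 with THZ531). The MRPS25 calls were lost without replicate 1 or 2 of C312S DMSO, replicate 2 or 3 of C312S with YKL at 500 nM, or replicate 1 or 2 of C312S with THZ531. The MRPS5 call was lost without replicate 1 of C312S DMSO or replicate 2 or 3 of C312S with THZ531.

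The effect of YKL differed between the lines in the same direction. At 500 nM 60 members were lower and 4 higher in C312S minus WT (background 39% and 34.7%), with a median of -0.61 against -0.06, and at 2 µM 53 were lower and 5 higher (background 37.4% and 34.4%), with a median of -0.41 against -0.05. These differences use the C312S DMSO libraries, and with spike-in scaling all 77 members were higher at 500 nM and 75 at 2 µM. Across tested genes they had Spearman correlations with GC content of 0.49 at 500 nM and 0.52 at 2 µM. With GC and length trends removed 55 of the 64 members called at 500 nM and 45 of the 58 at 2 µM kept their direction. MRPL13 stood in C312S at 108, 112 and 116 FPKM with 500 nM, against 265, 227 and 236 FPKM in DMSO, and in WT at 122, 127 and 121 FPKM, against 115, 97.1 and 90.2 FPKM in DMSO (difference -1.39, SE 0.12, limma adjusted p = 5.12e-12). The YKL libraries of the lines thus lay close together and the DMSO libraries far apart. MRPL33 (-1.32), MRPL32 (-1.29) and MRPS31 (-1.23) followed at 500 nM, and MRPL32 (-1.09), MRPL33 (-1.07), MRPL13 (-1.06) and MRPS14 (-1.03) at 2 µM. MRPS2 (0.56 and 0.62), MRPS5 (0.45 and 0.37), MRPS25 (0.17 at 500 nM), MRPS28 (0.32 at 2 µM) and MRPL37 (0.14 and 0.31) had the other sign. The MRPL37 call at 500 nM was lost without replicate 1 of WT DMSO (0.08), replicate 1 of C312S DMSO, replicate 1 or 3 of C312S with YKL or replicate 3 of WT with YKL.

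Genes of related function were read from the same fit, in which 31.3% of all tested genes rose and 31.7% fell in WT with YKL at 500 nM, 34% and 34.8% with THZ1, and 38.9% and 38.1% in the 2 µM combination. Of 7 genes listed with the mitochondrial ribosome under other symbols, not all of them for ribosomal proteins, 1 rose and 2 fell in WT with YKL at 500 nM. With THZ1 1 rose and 4 fell, and in the 2 µM combination 4 rose and 1 fell. DAP3, a small-subunit protein, stood at 136 ± 4.87 FPKM in the 2 µM combination, against 66.4 ± 5.13 FPKM in WT DMSO (1.02), and OXA1L, the inner-membrane insertase, at 55.6 ± 3.96 FPKM with THZ1, against 97.9 ± 6.25 FPKM in WT DMSO (-0.80). Of 25 assembly factors 2 rose and 13 fell with THZ1 in WT, among them RPUSD3 (14.7 ± 1.99 FPKM, against 37.4 ± 1.49 FPKM in WT DMSO) and the helicase DDX28 (5.43 ± 0.466 FPKM, against 12.2 ± 0.492 FPKM). Of 13 translation factors 6 rose and 6 fell with THZ1, and 10 rose and 2 fell in the 2 µM combination, where GFM2, a ribosome-recycling factor, stood at 81.6 ± 6.49 FPKM against 31.5 ± 0.168 FPKM in WT DMSO (1.34). Of 16 genes of mitochondrial RNA synthesis and stability 8 rose and 3 fell with THZ1, and 10 rose and 5 fell in the 2 µM combination, where POLRMT, the mitochondrial RNA polymerase, changed by -0.55. Of 9 nuclear regulators tested 0 rose and 8 fell with YKL at 500 nM, and 1 rose and 7 fell in the 2 µM combination, where PPRC1, a coactivator, changed by -1.31.

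The same fit was read for cytosolic ribosomal protein genes and nuclear genes of oxidative phosphorylation, and the difference between lists was not tested. These lists too are given for a part of the comparisons, which is not the same for both. With YKL at 500 nM in WT 23 of the 77 members rose and 27 fell, and 0 of 79 cytosolic ribosomal protein genes rose and 76 fell, with a median of -0.63. With THZ1 15 members rose and 41 fell, with a median of -0.16, whereas 46 cytosolic ribosomal protein genes rose and 7 fell, with a median of 0.23, and 51 of 76 oxidative phosphorylation genes rose and 9 fell, with a median of 0.30. ATP5B, a subunit of ATP synthase, stood at 1705 ± 19.4 FPKM with THZ1, against 921 ± 43 FPKM in WT DMSO (0.89). In the 2 µM combination 45 members rose and 19 fell, and 61 oxidative phosphorylation genes rose and 8 fell, with a median of 0.50.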

How the data were processed

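Polyadenylated RNA of 42 HAP1 libraries was measured, 3 in each of 14 groups taken from the cell line and treatment labels. The authors deposited FPKM values per gene, and the submitters' processing notes list HISAT2 2.0.4, Cufflinks 2.2.1, Cuffnorm and the build hg19, without roles. The FPKM values deposited by the authors carry no counts, so depth is unknown. The table held 26320 rows, 92 of them spike-in RNAs left out of the tests, and 0 columns without a sample.

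The 12816 genes that reached 1 FPKM in 3 or more libraries were fitted as log2(FPKM + 1) with limma 3.58.1 (R 4.3.3; eBayes with trend, 14 group means, no block), Benjamini-Hochberg adjusted within each of 21 comparisons and called at adjusted p under 0.05. A pseudocount of 1 understates the change of low genes. The script was tested on simulated data. Named members are the up to 4 largest called rises and 4 largest called falls with no overlap between libraries and a mean of at least 5 FPKM (for differences between lines, overlap was allowed), the 5 highest and 5 lowest in WT DMSO, those called one way in all 6 WT treatments, and the MRPS18 paralogs. SARS2, FAU, EME1, SLC5A3, PSMA2 and MRPS31P5 were added as neighbours, overlapping genes or copies after values were seen. Members, lists and tests were chosen with earlier results of these data known. The alternatives were other pseudocounts, filters and scalings, a replicate block, only the groups compared, and each library left out. Removal of GC and length trends was chosen after seeing the data. Promoter windows are RefSeq's (GRCh38.p14). Annotated overlaps and pseudogene copies come from GENCODE: 16 members share exon positions with another gene on their strand and 29 with one on the other strand, and 34 have pseudogene copies, so part of their FPKM may belong to other loci. Among those with an overlap on their strand are MRPS16 (with DNAJC9) and MRPL33 (with BABAM2).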

Additional observations from a re-analysis of the deposited data

Results flagged for a closer look

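These results were picked out because the effect of a treatment differed between the C312S and WT lines by limma's test of the difference itself, given as C312S minus WT in log2. No group was tested for outlying samples, since each holds 3 libraries.

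The effect of YKL at 500 nM differed in 64 members, 4 above 0 and 60 below (34.7% and 39% of all tested genes), and that at 2 µM in 58, 5 above and 53 below (34.4% and 37.4%). At 500 nM the largest differences were MRPL13 (-1.39) and MRPL33 (-1.32) below 0 and MRPS2 (0.56) and MRPS5 (0.45) above it. At 2 µM they were MRPL32 (-1.09), MRPL33 (-1.07), MRPS2 (0.62) and MRPS5 (0.37). Both sets use the C312S DMSO libraries, whose summed FPKM (794374) exceeded that of WT DMSO (558669), and its part in them was not tested.

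The THZ1 effect differed in 36 members, 29 above 0 and 7 below (22.4% and 19.8% of all tested genes), with MRPS14 (-0.55) and MRPL53 (-0.45) below 0 and MRPS6 (0.82) and MRPL1 (0.54) above it. It uses the same DMSO libraries.

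The change on adding YKL to THZ531, which uses no DMSO library, differed in 30 members at 500 nM, 16 above 0 and 14 below, shares near those of all tested genes (20.5% and 21%). At 2 µM it differed in 44, 9 above and 35 below (25.9% and 27.2%). At 500 nM MRPL40 (-0.59) and MRPS31 (-0.58) lay below 0 and MRPL48 (0.91) and MRPS6 (0.55) above it. At 2 µM MRPL33 (-0.81), MRPL32 (-0.71), MRPS6 (0.60) and MRPS2 (0.47) led.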

How the results depend on the processing

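Counts of called members are given as totals, without the share of all tested genes called under the same setting. With total-FPKM scaling the majority turned for WT with YKL at 500 nM (64) and 2 µM (64), THZ531 (51), the 500 nM combination (61) and the line difference on adding 500 nM (44). With median-ratio scaling it turned for WT YKL at 500 nM (53) and that line difference (34). With spike-in scaling it turned for the WT 2 µM combination (69), C312S with YKL at 500 nM (68), 2 µM (74) and THZ531 (77), C312S against WT under DMSO (76), the line differences for YKL at 500 nM (77) and 2 µM (75), adding 500 nM in WT (56), adding 2 µM in WT (73) and C312S (76), its line difference (30) and the WT dose comparison (77). Spike-in scaling also moved WT THZ531 (27), the THZ1 line difference (77), adding 500 nM in C312S (72) and its line difference (13). With GC and length trends removed the dose comparison gave 10. Why a scaling moved a count was not tested. Leaving out 1 library gave 41 to 49 for WT YKL at 500 nM, 27 to 36 for the line difference on adding 500 nM and 0 to 7 for the dose comparison.

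Named members that turned with spike-in scaling had these log2 changes. WT YKL at 500 nM gave MRPS14 -0.032, MRPL40 -0.081, MRPL32 -0.14, MRPL21 -0.41, MRPS9 -0.43, MRPS18A -0.51 and MRPS18C -0.40, and WT THZ1 gave MRPL32 -1.77, MRPL44 -1.82, MRPS31 -1.82, MRPL33 -1.93, MRPL21 -2.19 and MRPS9 -2.07. The WT 2 µM combination gave MRPL21 -0.14, MRPS9 -0.40, MRPS18A -0.93, MRPS18B -0.75 and MRPS18C -0.67. In C312S YKL at 500 nM gave MRPL33 0.030, MRPL48 0.023 and MRPS23 0.047, YKL at 2 µM gave MRPS10 0.18, MRPL48 0.21 and MRPL54 0.23, and THZ531 gave MRPS33 0.39, MRPS15 0.48, MRPL53 0.50 and MRPL49 0.54. C312S against WT under DMSO gave MRPL13 -0.18, MRPS23 -0.26, MRPL33 -0.31 and MRPL51 -0.34. Line differences were MRPL13 0.41, MRPL33 0.49, MRPL32 0.51 and MRPS31 0.55 for YKL at 500 nM, MRPL32 0.28, MRPL33 0.31, MRPL13 0.32 and MRPS14 0.29 for 2 µM, and MRPS14 1.47, MRPL53 1.67, MRPL13 1.84 and MRPL49 1.84 for THZ1. Adding 2 µM gave MRPL52 -0.23, MRPL55 -0.24, MRPL49 -0.27 and MRPL32 -0.32 in C312S, and MRPL32 -0.015, MRPS31 -0.085, MRPS14 -0.15 and MRPL13 -0.21 in WT. The dose comparison gave MRPL54 0.25, MRPS24 0.32, MRPL27 0.31 and MRPL11 0.35. With total-FPKM scaling WT YKL at 500 nM gave MRPL12 0.044 and MRPS18B 0.065. MRPS2 in C312S against WT under DMSO turned to 0.060 with GC and length trends removed.

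The labels state no pairing by replicate number. In 0 of 16 comparisons of 2 groups did every same-numbered pair of deviations correlate over 0.1. The mean correlation was 0.015 for the same number and -0.0075 for different numbers. Of the 42 libraries 20 matched best with their own number, and the number expected without pairing was not computed. These values do not settle whether the numbers mark a weak pairing. With the replicate block WT YKL at 500 nM gave 21 higher and 27 lower, no count moved by over 1.5 times and no named member changed its call. Pseudocount 0.1, the other filters and the fit of only the groups compared left the count of every comparison within 1.5 times. Depth is unknown, so what it limits cannot be given.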
